A study of Homo sapiens with 6 samples.

Results

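Genes of intracellular sterol transport and storage were examined as a named set of 10, consisting of NPC1, NPC2, LIPA, SCARB1, STARD4, STARD3, SOAT1, OSBP, NR1H2 and NR1H3. A probe set, the group of array probes that reads 1 transcript region, was taken where the platform annotation gave it exactly 1 gene symbol and that symbol was in the set. This gave 30 of the 44988 probe sets with 1 symbol and covered 9 of 18132 genes. The annotation supplied for this work lists no probe set under NR1H2, so NR1H2 was not analysed here.

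The arrays measured RNA of HMEC-1, an immortalised line of human microvascular endothelial cells, made with a viral oncoprotein and grown here without serum. EPC-Exos were applied to 3 samples for 24 hours at a dose of 1e+11 particles/mL, and PBS of equal volume to the other 3. The labels do not spell out EPC-Exos, which the study is known to use for exosomes from endothelial progenitor cells. The comparison addresses how these vesicles alter RNA levels of the recipient cells. All samples come from 1 cell line, and separate cultures behind the replicates are not stated in the labels, so every p-value reflects the scatter among these arrays alone and that scatter may be technical.

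Array medians lay between 6.25 and 6.34 in log2 signal. Arrays of the same group correlated at 0.997, and arrays of different groups at 0.988 to 0.989. Of 12 endothelial marker genes, 4 (CDH5, TEK, CLDN5 and EMCN) had mean signals at or below 4.97 in both groups. That level, the highest mean among 17 Tag control probe sets without a human target, serves here as a guide to background. Of the same 12 genes 7 passed the signal filter described below. PECAM1 was above the Tag level but below that filter, with means of 5.18 with PBS and 5.23 with EPC-Exos, and was not called without it. Of the 7 that passed, 3 (TIE1, ENG and ESAM) were called higher after EPC-Exos and 0 lower, while VWF, KDR, ERG and EGFL7 were not called. Among all tested genes 21.7% were called higher and 27.3% lower. The summed linear signal of the 12 genes, as log2, ran from 10.36 to 10.59 with PBS and from 10.93 to 10.99 with EPC-Exos. ENG, the brightest of the 12, had means of 9.16 and 9.96. Of 6 fibroblast markers 3 passed the signal filter and were called lower (COL1A1, PDGFRB and DCN). DCN reached the filter level of 5.45 only through its PBS signal, with means of 7.61 with PBS and 5.40 with EPC-Exos. LUM, COL1A2 and PDGFRA lay below the filter, and of these LUM was lower in the fit without it. The summed signal ran from 11.28 to 11.46 with PBS and from 10.50 to 10.66 with EPC-Exos. Of 5 epithelial markers 3 were tested. The keratin genes KRT8 and KRT18 were called lower, and EPCAM, with a change of -0.00, was not called. CDH1 and ESRP1 lay below the filter and were not called without it. The summed signals ran from 12.71 to 12.85 with PBS and from 12.16 to 12.21 with EPC-Exos. KRT18, the brightest of the 5, had means of 12.53 and 11.82. Of 6 leukocyte markers 5 lay at or below the Tag level in both groups, and none passed the filter or was called without it, with the summed signal between 6.84 and 7.01 with PBS and between 6.94 and 7.01 with EPC-Exos. The part of these shifts in the results below was not tested. In RNA of whole cultures, fewer cells of a kind and less RNA per cell cannot be told apart.

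Cholesterol reaches endothelial cells mainly inside lipoproteins. Lysosomes split its esters with the acid lipase that LIPA encodes, NPC2 carries the freed sterol inside the lysosome, and NPC1 passes it through the lysosomal membrane. From there, transfer proteins such as STARD4, STARD3 and OSBP move sterol between organelles, SOAT1 re-esterifies the surplus in the endoplasmic reticulum for storage in droplets, and the liver X receptors (LXRs, encoded by NR1H2 and NR1H3) switch on export genes when oxysterols accumulate. SCARB1 encodes a surface receptor that exchanges cholesterol with high-density lipoprotein.

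After EPC-Exos, the lysosomal genes LIPA, NPC2 and NPC1 and the transfer protein genes STARD4 and OSBP had lower signals, and the ester-forming enzyme gene SOAT1 and the receptor gene SCARB1 had higher ones. STARD4 showed the largest change, a 2.91-fold fall, and the other called changes lay between a 1.26-fold fall and a 1.81-fold fall, or between a 1.32-fold and a 1.53-fold rise. The OSBP call was lost over the mean of its probe sets and without probe sets ending in _x_at or _s_at, either of which left 4 members called lower. STARD3 was not called. Of the 9 measured members, 8 passed the signal filter, a mean log2 signal of at least 5.45 over all arrays, and NR1H3 did not. A gene was called where limma gave an adjusted p (Benjamini-Hochberg) under 0.05. By that rule 5 of the 8 fell and 2 rose, where 27.3% of the 11715 tested genes fell and 21.7% rose (49.1% in either direction). The rising share of the members was thus near that of the array, and the falling share was above it. The members' median log2 change was -0.45, against -0.01 over all tested genes.

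The PBS and EPC-Exos arrays did not overlap in the same 5 falling and 2 rising members, where 30.2% of tested genes were separated downward and 25.5% upward. The series' design text sets another threshold, 1.5-fold or more at an unadjusted p under 0.05, which took LIPA, NPC2 and STARD4 as lower and SOAT1 as higher, or 3 and 1 of the 8, where 5.96% and 3.94% of tested genes passed. A larger absolute change than that of STARD4 was found in 0.819% of tested genes, than that of LIPA in 4.29%, NPC2 in 6.79%, SOAT1 in 9.07% and NPC1 in 10.3%. For SCARB1 this share was 19.8%, for OSBP 27.0% and for STARD3 77.9%. The set therefore ran from among the largest falls of the array to no measurable change.

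**Figure D1:**
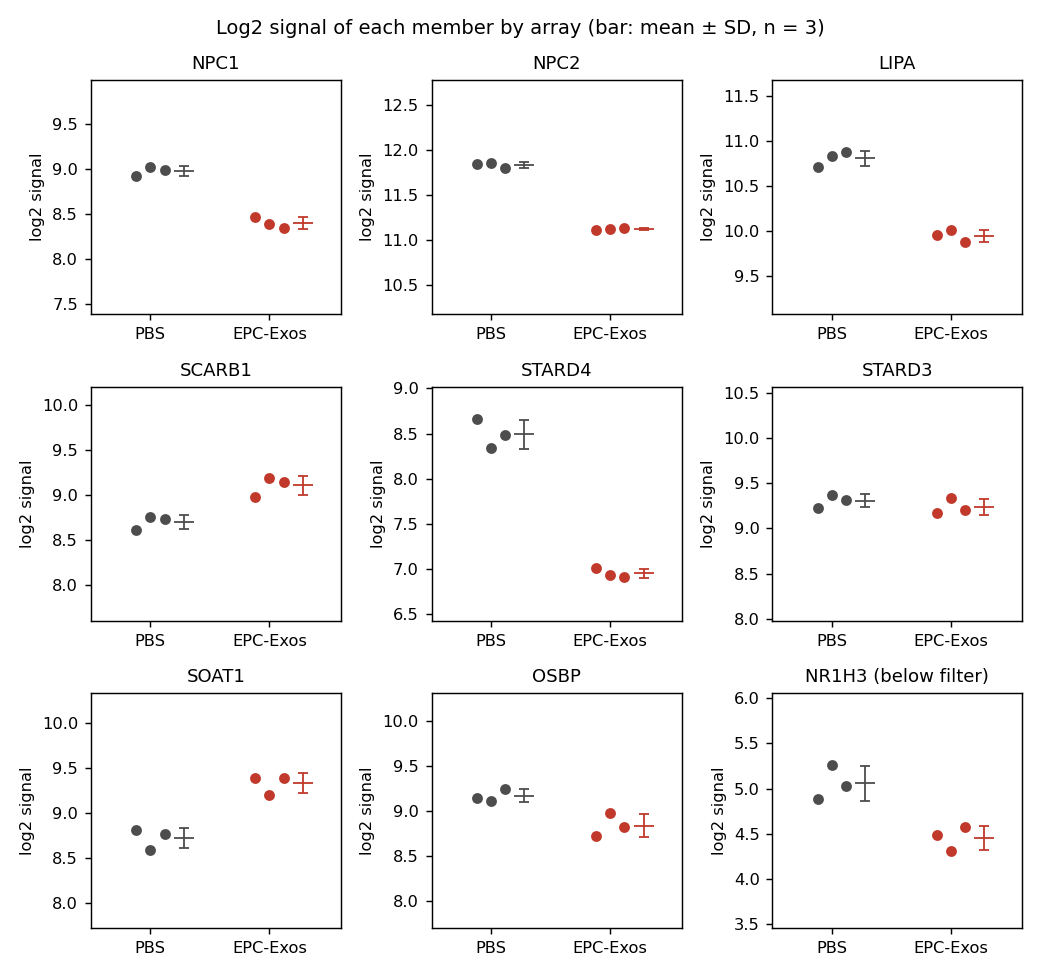
Log2 signal of the brightest probe set of each measured member on every array, with PBS arrays in grey and EPC-Exos arrays in red; the bars give mean ± SD (n = 3), and every panel spans the same number of log2 units. The groups are apart in every panel except STARD3, and the widest gap is in STARD4, from 8.34 or more with PBS to 7.01 or less with EPC-Exos.

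The stretches upstream of the genes with the largest fall and the largest rise are shown because they let the reader set side by side the promoter regions of members that moved in opposite directions. Among called members with 1 listed start, these were STARD4 and SOAT1. The sequences are the 250 bases before the RefSeq transcription start, in GRCh38.p14, read 5′ to 3′ on the gene's strand. Capitals mark the letters CCAAT, the box bound by the factor NF-Y, which often works beside sterol regulatory element-binding proteins (SREBPs). The STARD4 stretch is at chr5:111512536-111512785 on the minus strand and that of SOAT1 at chr1:179293547-179293796 on the plus strand.
STARD4: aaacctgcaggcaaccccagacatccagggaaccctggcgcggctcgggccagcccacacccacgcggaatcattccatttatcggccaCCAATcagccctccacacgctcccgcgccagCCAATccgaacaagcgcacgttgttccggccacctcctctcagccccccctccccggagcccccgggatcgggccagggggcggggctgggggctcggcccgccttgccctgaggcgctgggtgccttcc
SOAT1: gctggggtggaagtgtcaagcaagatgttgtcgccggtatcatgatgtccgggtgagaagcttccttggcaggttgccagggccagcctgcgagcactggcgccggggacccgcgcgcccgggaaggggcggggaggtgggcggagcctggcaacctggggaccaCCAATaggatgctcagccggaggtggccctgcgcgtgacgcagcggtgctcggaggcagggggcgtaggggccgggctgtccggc

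The STARD4 stretch held 2 CCAAT boxes, which begin 161 and 130 bases before the start, and the SOAT1 stretch held 1, which begins 85 bases before it. Both stretches consisted of G and C to 70.4%. RefSeq windows were found for 9 of the 10 genes, 15 windows in all, because some genes have several starts. These 9 genes are not the 9 measured members. They include NR1H2, which had no probe set, and leave out SCARB1, for which no window was listed. On either strand, CCAAT occurred in 7 of these 15 windows, where 32.0% of the 35116 windows of the same 250 bases over all genes held it. By gene, 6 of the 9 held it in at least 1 window. No share by gene was taken over all genes, so the 32.0% is not a background for that count. The SREBP motif TCACNCCAC was in 0 of the 15 windows, with 0.883% of all windows holding it, and the E-box CACGTG, the core of the lysosomal gene motif bound by TFEB, in 0 of the 15, with 6.34% of all windows holding it. None of the 3 motifs contains another on either strand. A match describes letters only, and its absence says no more than that these letters are not in these windows.

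The genes of lysosomal sterol release fell together. LIPA (NCBI gene 3988), the acid lipase of the lysosome, read 10.71, 10.83 and 10.87 (log2 signal) on the PBS arrays, against 9.95, 10.01 and 9.88 on the EPC-Exos arrays. Every EPC-Exos array lay below every PBS array, with a gap several times the spread within either group. The change was -0.86 ± 0.056 (SE), a 1.81-fold fall (limma, adjusted p = 2.49e-09). The LIPA probe set used here ends in _s_at, a kind that can bind transcripts of related genes. The second LIPA probe set, which ends in _a_at, gave 8.94, 9.03 and 9.03 with PBS and 8.06, 8.14 and 8.08 with EPC-Exos, a change of -0.91 ± 0.068.

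NPC2 (NCBI gene 10577), the soluble sterol carrier of the lysosome lumen, read 11.84, 11.86 and 11.80 (log2 signal) on the PBS arrays, against 11.11, 11.12 and 11.14 on the EPC-Exos arrays. These are the tightest groups of the set, with SDs of 0.031 and 0.017 (n = 3), and they did not overlap. The change was -0.71 ± 0.040 (SE), a 1.63-fold fall (limma, adjusted p = 4.21e-10). A second bright probe set changed by -0.79 ± 0.047. The remaining NPC2 probe sets changed by -0.08 ± 0.119 and -0.15 ± 0.126, were not called, and had mean signals at or below the Tag level in both groups. Averaging all 4 probe sets of NPC2 therefore gave a smaller change, -0.43, which was still called (limma, adjusted p = 3.09e-05).

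NPC1 (NCBI gene 4864), the transporter in the lysosomal membrane, read 8.92, 9.02 and 8.99 (log2 signal) on the PBS arrays, against 8.47, 8.39 and 8.34 on the EPC-Exos arrays. Again the groups were apart. Its change of -0.58 ± 0.067 (SE) was a 1.49-fold fall (limma, adjusted p = 2.24e-06), just short of the fold in the series' design text. The other NPC1 probe set read 7.71, 7.98 and 7.84 with PBS and 7.19, 7.51 and 7.21 with EPC-Exos, a change of -0.54 ± 0.099. All 4 probe sets of LIPA and NPC1 were called lower, in the fit over single probe sets without the filter. In that fit, 13 of the 30 member probe sets were called lower and 4 higher, where 15.0% and 13.8% of all 44988 were. Probe sets of 1 gene read the same RNA and can share sequence, so they are not separate replicates.

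Of 8 genes chosen as lysosomal and receptor partners, 7 had a probe set and 5 were tested. Of these 5, 3 were called lower and 0 higher, where 27.3% and 21.7% of all tested genes were. The median log2 change was -0.14. TMEM97, a membrane protein that binds NPC1, fell from 11.14 ± 0.023 to 10.19 ± 0.056 in log2 signal (SD, n = 3), a change of -0.95 ± 0.048 (SE; limma, adjusted p = 1.26e-10). CAV1, the cholesterol-binding coat protein of caveolae, changed by -0.53 ± 0.033 (limma, adjusted p = 1.54e-09), and LAMP1, a main glycoprotein of the lysosomal membrane, by -0.14 ± 0.038 (limma, adjusted p = 0.00522). The probe sets of TMEM97 and CAV1 end in _s_at. Without probe sets ending in _x_at or _s_at their changes were -0.93 and -0.45. The LAMP1 call was lost without the probe sets ending in _x_at or _s_at (limma, adjusted p = 0.113) and without the variance trend (limma, adjusted p = 0.0555). LAMP2 and SCARB2, also lysosomal membrane proteins and named after their values were seen, changed by -0.07 ± 0.048 and -0.09 ± 0.042 and were not called. The 95% interval of the LAMP2 change ran from -0.17 to 0.03 and that of SCARB2 from -0.18 to -0.00, and the SCARB2 groups did not overlap, while those of the called falls in LIPA (-0.98 to -0.74) and NPC2 (-0.79 to -0.62) lay lower.

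The transfer proteins parted. STARD4 (NCBI gene 134429), a small soluble protein that carries sterol between the plasma membrane and the endoplasmic reticulum, read 8.66, 8.34 and 8.48 (log2 signal) on the PBS arrays, against 7.01, 6.93 and 6.91 on the EPC-Exos arrays. The lowest PBS array was above the highest EPC-Exos array by far more than the spread within a group. The change was -1.54 ± 0.087 (SE), a 2.91-fold fall (limma, adjusted p = 4.20e-10).

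Each of the 5 STARD4 probe sets was called lower, with changes from -2.06 to -1.54. The probe set with the largest fall read 7.80, 7.60 and 7.71 with PBS and 5.71, 5.39 and 5.83 with EPC-Exos, a change of -2.06 ± 0.114. The dimmest read 5.51, 5.82 and 5.69 with PBS and 3.96, 3.63 and 3.62 with EPC-Exos. Its EPC-Exos values lay below the Tag level of 4.97, so its change of -1.94 ± 0.129 is uncertain and can be too small. The brightest STARD4 probe set, used above, ends in _x_at and can bind related transcripts. Without the probe sets ending in _x_at or _s_at the change of STARD4 was -1.69, and over the mean of all its probe sets it was -1.83.

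STARD3 (NCBI gene 10948), which tethers late endosomes to the endoplasmic reticulum and carries a sterol-binding START domain like STARD4, read 9.23, 9.37 and 9.32 (log2 signal) on the PBS arrays, against 9.17, 9.34 and 9.21 on the EPC-Exos arrays. The groups overlapped. The change of -0.07 ± 0.066 (SE) was not called (limma, adjusted p = 0.406), and its 95% interval ran from -0.21 to 0.07. None of the 5 STARD3 probe sets was called, with changes from -0.10 to 0.15 and unadjusted p of at least 0.214 in limma. The interval of STARD4, from -1.73 to -1.36, lay wholly below that of STARD3.

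OSBP (NCBI gene 5007), which exchanges cholesterol for a phosphoinositide at contacts of the endoplasmic reticulum with the Golgi, read 9.15, 9.11 and 9.25 (log2 signal) on the PBS arrays, against 8.72, 8.98 and 8.82 on the EPC-Exos arrays. The groups were apart, but by little. The change was -0.33 ± 0.074 (SE), a 1.26-fold fall (limma, adjusted p = 0.0014). This rests on 1 of 5 probe sets. The brightest, which ends in _s_at, was called, and the other 4 changed by between -0.23 and 0.03 and were not. With the probe sets ending in _x_at or _s_at left out the change was -0.17 (limma, adjusted p = 0.16), and over the mean of all probe sets it was -0.16 (limma, adjusted p = 0.0645), so the call on OSBP did not hold under either.

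**Figure D2:**
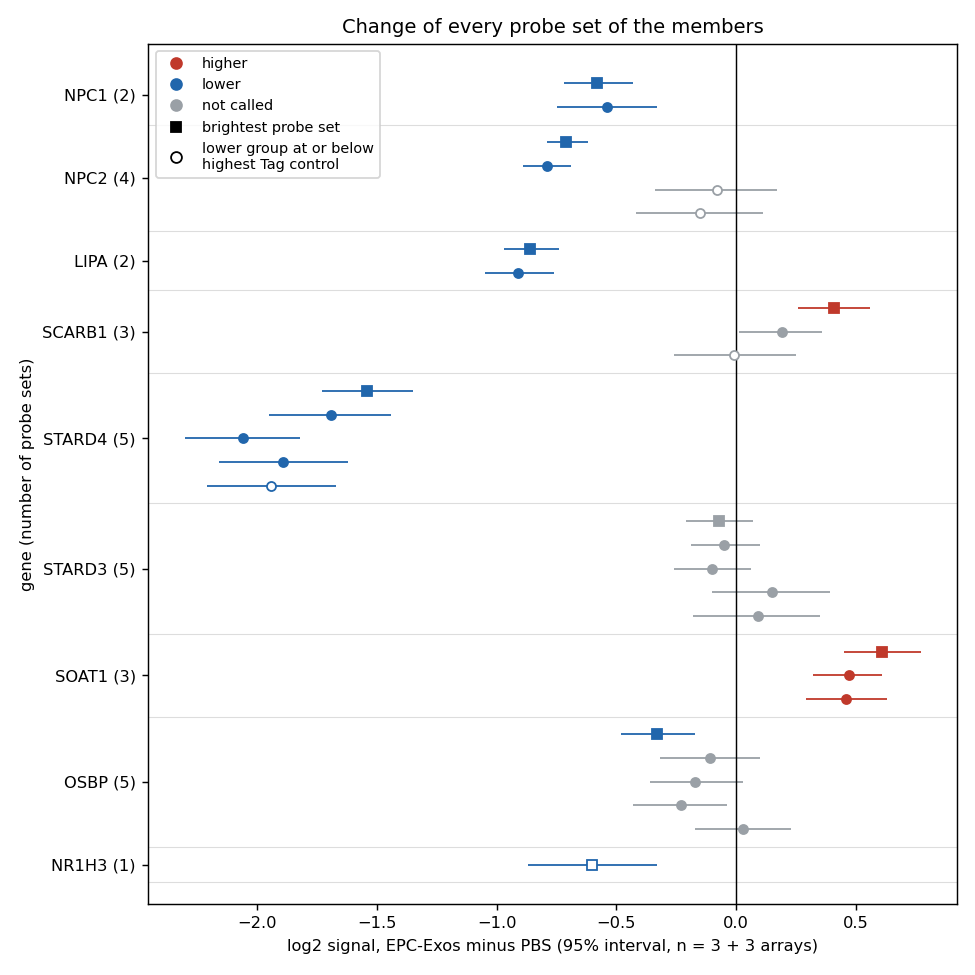
Change in log2 signal, EPC-Exos minus PBS, of all 30 member probe sets, grouped by gene, with 95% intervals from the limma fit over single probe sets. Red and blue mark probe sets called higher and lower, squares the brightest probe set of a gene, and open symbols those whose lower group was at or below the Tag level. All STARD4 and SOAT1 probe sets were called in 1 direction each, while 1 of 5 was called for OSBP and 0 of 5 for STARD3.

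Among 17 other sterol transfer proteins, 14 were tested. Of these 6 fell and 3 rose, where 27.3% of all tested genes fell and 21.7% rose, so the rising share was near that of the array. The other 5 were not called, and the median log2 change was -0.12. The falls were largest in GRAMD1C, a member of the family that moves plasma membrane cholesterol to the endoplasmic reticulum, at -0.66 ± 0.089 (SE; limma, adjusted p = 1.24e-05), and in the oxysterol-binding relative OSBPL10, at -0.51 ± 0.084 (limma, adjusted p = 8.64e-05). OSBPL10 was not called over the mean of its probe sets (-0.17; limma, adjusted p = 0.0699). The rises were in GRAMD1A, a relative of GRAMD1C, at 0.40 ± 0.096 (limma, adjusted p = 0.00228), in OSBPL6 at 0.34 ± 0.075 (limma, adjusted p = 0.00129) and in STARD3NL. GRAMD1A read 7.52, 7.78 and 7.85 with PBS and 8.08, 8.28 and 7.99 with EPC-Exos, and GRAMD1C read 7.92, 7.66 and 7.81 with PBS and 7.16, 7.24 and 7.03 with EPC-Exos. These relatives thus changed in opposite directions, each with groups that did not overlap. Such separation was found upward in 25.5% and downward in 30.2% of all tested genes.

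STARD3NL, a relative of STARD3 without the START domain that was named after its values were seen, changed by 0.25 ± 0.092 (limma, adjusted p = 0.0315). Its PBS values were 10.28, 10.28 and 9.81, and without the third PBS array the change was 0.10 and not called (limma, adjusted p = 0.156). The call was also lost without EPC-Exos replicate 1, 2 or 3 (limma, adjusted p = 0.0839, 0.11 and 0.0569). Quantile scaling, median scaling and a fit without the variance trend lost it as well (limma, adjusted p = 0.0617, 0.0664 and 0.111). The STARD3NL probe set ends in _s_at and can bind related transcripts. Of 5 genes for partners at membrane contacts, 1 was called, where 49.1% of all tested genes were. It was the lipid kinase gene PI4KA, at -0.29 ± 0.074 (limma, adjusted p = 0.00361). Its probe set ends in _x_at and can bind related transcripts, and PI4KA had no probe set without an _x_at or _s_at ending. The tethers VAPA (0.03 ± 0.035) and VAPB (0.07 ± 0.053), the kinase gene PI4KB (0.03 ± 0.066) and the phosphatase gene SACM1L (-0.10 ± 0.065), through which OSBP works, were not called, and these 4 genes were picked for naming once their values had been seen. The list's median log2 change was 0.03.

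The members called higher were SOAT1 and SCARB1. SOAT1 (NCBI gene 6646), the enzyme that esterifies cholesterol in the endoplasmic reticulum, read 8.81, 8.59 and 8.76 (log2 signal) on the PBS arrays, against 9.39, 9.20 and 9.39 on the EPC-Exos arrays. All EPC-Exos arrays were above all PBS arrays. The change was 0.61 ± 0.075 (SE), a 1.53-fold rise (limma, adjusted p = 4.42e-06). The other SOAT1 probe sets rose by 0.47 ± 0.069 and 0.46 ± 0.081 and were called as well, so all 3 rose.

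SCARB1 (NCBI gene 949), the receptor for high-density lipoprotein, read 8.61, 8.75 and 8.73 (log2 signal) on the PBS arrays, against 8.98, 9.19 and 9.14 on the EPC-Exos arrays. The groups did not overlap. The change was 0.41 ± 0.071 (SE), a 1.32-fold rise (limma, adjusted p = 1.65e-04). Of the other probe sets, 1 changed by 0.19 ± 0.082 with groups that did not overlap and was not called (limma, adjusted p = 0.104), and 1, with mean signals below the Tag level, changed by -0.01 ± 0.122. Averaged over all 3, the change was 0.20, which was called (limma, adjusted p = 0.0241).

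Of 4 further genes of ester turnover, 3 had a probe set and 2 were tested. NCEH1, which encodes a hydrolase that frees cholesterol from stored esters and so works against SOAT1, read 9.77, 9.64 and 9.57 with PBS and 10.09, 9.99 and 9.91 with EPC-Exos. It rose by 0.33 ± 0.065 (limma, adjusted p = 4.35e-04), so the genes for making and for splitting stored esters were both higher, whereas LIPA, for splitting esters in the lysosome, was lower. LCAT, the secreted enzyme that esterifies cholesterol on lipoproteins, changed by -0.24 ± 0.092 (limma, adjusted p = 0.0414), and its call was lost without PBS replicate 2 or 3 or EPC-Exos replicate 1 or 3 (limma, adjusted p = 0.125, 0.0935, 0.11 and 0.104), without the filter and with the filter at the 60th percentile (limma, adjusted p = 0.0677 under both). SOAT2, the relative of SOAT1 in liver and intestine, lay below the filter with log2 signals of 5.06 ± 0.053 and 4.83 ± 0.186 (SD, n = 3) and was named after its values were seen.

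Of the liver X receptors, NR1H3 (NCBI gene 10062), which encodes LXR alpha, was measured by 1 probe set below the signal filter. It read 4.88, 5.26 and 5.03 with PBS and 4.48, 4.31 and 4.57 with EPC-Exos. The groups did not overlap, but the EPC-Exos values lay below the Tag level of 4.97. In the limma fit without the filter the change was -0.60 ± 0.122 (SE; adjusted p = 6.88e-04), where 18.0% of 18132 genes were called lower. Near the background such a change is uncertain in size, and it shrank to -0.38 and -0.18 when 16 and 64 were added to the linear signal.

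LXRs bind DNA together with retinoid X receptors. RXRA read 8.56, 8.92 and 8.83 with PBS and 8.29, 8.28 and 8.24 with EPC-Exos, a change of -0.50 ± 0.084 (SE; limma, adjusted p = 1.14e-04). RXRB changed by -0.40 ± 0.064 (limma, adjusted p = 6.26e-05). Its probe set ends in _s_at, and without probe sets ending in _x_at or _s_at the RXRB change was -0.38. The calls on RXRA and RXRB were both lost when all probe sets of each gene were averaged (-0.16 and -0.17, limma, adjusted p = 0.0833 and 0.0563). Of 5 genes on the list of LXR partners and corepressors 3 had a probe set and these 2 were tested.

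Of 9 genes that LXRs are known to switch on, 6 were tested. Of these 4 fell and 0 rose, where 27.3% of all tested genes fell and 21.7% rose. The other 2 were not called, and the median log2 change was -0.84. Without ABCG1, which reached the filter only through its PBS signal, 3 of 5 fell and the median was -0.69, a count added after the data were seen. SREBF1, the gene of the transcription factor SREBP1, changed by -1.16 ± 0.092 (SE; limma, adjusted p = 2.58e-08), and its values were 8.48, 8.66 and 8.88 with PBS and 7.42, 7.56 and 7.57 with EPC-Exos. ABCG1, a sterol exporter, also changed by -1.16 (± 0.143; limma, adjusted p = 4.62e-06), but its EPC-Exos mean of 4.94 was under the Tag level, and with 64 added to the linear signal its change was -0.48. MYLIP, the ubiquitin ligase that removes the low-density lipoprotein receptor, changed by -0.98 ± 0.079 (limma, adjusted p = 3.01e-08). Its probe set ends in _s_at, and without such probe sets the MYLIP change was -0.64. LPCAT3, a phospholipid-remodelling enzyme, changed by -0.69 ± 0.063 (limma, adjusted p = 1.26e-07). The LPCAT3 probe set ends in _x_at. Without probe sets ending in _x_at or _s_at the LPCAT3 change was -0.63, and over the mean of its probe sets it was -0.51. LXR activity itself was not measured.

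The genes of that list that were not called were APOE (-0.10 ± 0.092) and PLTP (0.12 ± 0.119), named after their values were seen. ABCA1, the main LXR-driven exporter, also named after its values were seen, lay below the filter. Its PBS arrays read 5.05, 4.75 and 4.93 and its EPC-Exos arrays 4.91, 4.89 and 5.14, so the groups overlapped. The ABCA1 means of 4.91 with PBS and 4.98 with EPC-Exos lay near the Tag level of 4.97, so these values cannot show whether ABCA1 changed. Of 4 oxysterol enzymes 2 were tested and 0 were called by limma at the adjusted or the unadjusted threshold. CYP27A1, which makes 27-hydroxycholesterol, changed by -0.10 ± 0.095, and CYP46A1, which makes 24-hydroxycholesterol, by 0.06 ± 0.104. CH25H, the enzyme for 25-hydroxycholesterol, which was named after its values were seen, had mean log2 signals of 3.31 and 3.36, below the Tag level. Over all 7 partner lists, 36 of 52 genes were tested, of which 17 fell and 4 rose, against the 27.3% and 21.7% of all tested genes given above, with a median log2 change of -0.12. Without ABCG1 16 of 35 fell, with a median of -0.10.

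**Figure D3:**
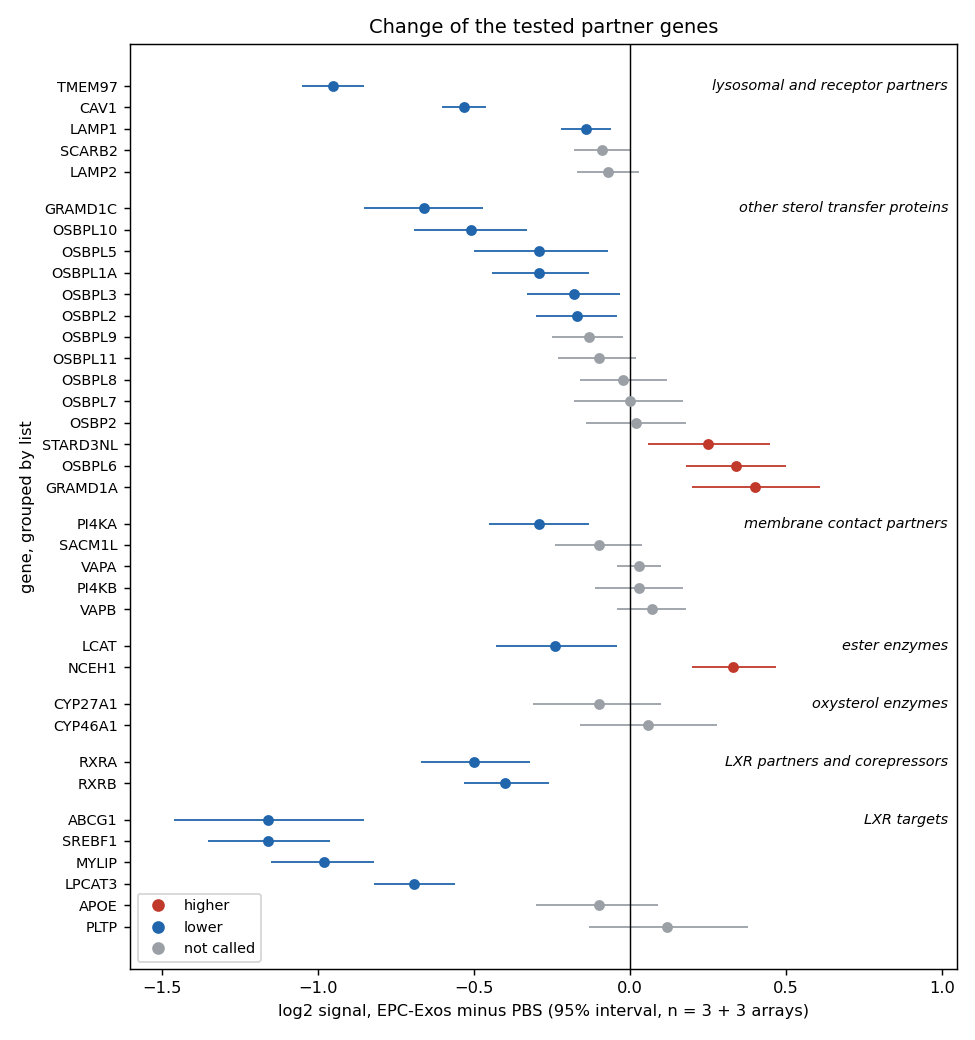
Change in log2 signal, EPC-Exos minus PBS, with 95% intervals, of the 36 tested partner genes, grouped by list. Blue marks genes called lower, red genes called higher and grey genes not called. SREBF1 fell by 1.16 and GRAMD1A rose by 0.40, while the size of the ABCG1 fall is uncertain because its EPC-Exos mean of 4.94 is under the Tag level.

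The genes whose pattern over the 6 arrays was most like that of STARD4 were sought among all tested genes by the Euclidean distance between values centred on each gene's mean. The nearest was FDPS, farnesyl diphosphate synthase of the mevalonate pathway, at a distance of 0.173 log2 units. FDPS read 11.78, 11.65 and 11.61 with PBS and 10.13, 10.06 and 10.02 with EPC-Exos, a fall of 1.61 on the log2 scale, and its probe set ends in _s_at and can bind related transcripts. PCDH18, a protocadherin gene whose probe set also ends in _s_at, followed at 0.226 and PARD6B, a cell polarity gene, at 0.243, with changes of -1.42 ± 0.107 and -1.59 ± 0.091 (SE). The change of PCDH18 was -0.60 over the mean of its probe sets and -0.68 with 64 added to the linear signal, and that of PARD6B -1.04 and -0.90. PCDH18 reached the filter level of 5.45 only through its PBS signal, with means of 6.59 with PBS and 5.17 with EPC-Exos. The measure follows mainly the size of the difference between the 2 groups.

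The members' changes kept their direction under 18 alternative settings, with the exception of STARD3, whose change was 0.00 over the mean of its probe sets. Across these settings STARD4 ranged from -1.83 to -1.18, LIPA from -0.91 to -0.82, NPC2 from -0.73 to -0.43, NPC1 from -0.61 to -0.50, SOAT1 from 0.51 to 0.67 and SCARB1 from 0.20 to 0.47. Leaving out any single array changed no member's call.

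**Figure D4:**
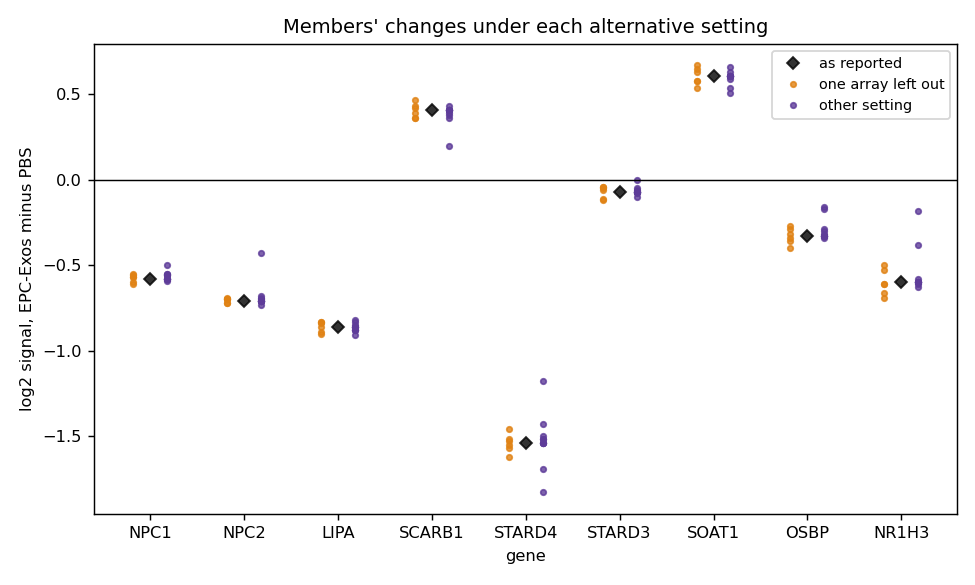
Change in log2 signal, EPC-Exos minus PBS, of the 9 measured members as reported (black), with 1 array left out (orange) and under the other settings (purple), without standard errors. The points of STARD4, LIPA, NPC2, NPC1 and SOAT1 stay clear of 0, and those of OSBP reach -0.16 and those of STARD3 reach 0.00.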

How the data were processed

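RNA of 3 PBS and 3 EPC-Exos samples was measured on Affymetrix 3' expression arrays. For 49395 probe sets the authors deposited log2 signals, 1 value on each array, a scale taken from the values (2.47 to 14.52), and the submitters' processing notes name MAS5 without a role. For background and scaling, the authors' steps are not given in the sources used here. The deposited scaling was kept. Depth has no meaning for arrays, and their number limits the precision.

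Of the probe sets, 44988 had 1 gene symbol in the platform annotation supplied for this work, 1832 had several and 2473 had none listed, and 102 were controls. The brightest probe set by mean signal stood for each gene, which was tested where that mean reached the 40th percentile of non-control probe sets (5.45), which left 11715 genes. Groups were taken from sample titles and compared two-sided by limma (version 3.58.1, R 4.3.3, functions lmFit and eBayes with a variance trend), with Benjamini-Hochberg adjustment over all tested genes. NR1H3 and the other genes below the filter were taken from the same fit without the filter, and single probe sets from a fit over all 44988. The fit was tested on simulated data. The alternatives were quantile and median scaling, linear offsets of 16 and 64, dropping the filter or raising it to the 60th percentile, averaging the probe sets of each gene, removing those ending in _x_at or _s_at, no trend, array weights, a replicate block, each array left out and the design text's threshold. In the leave-out fits the filter and probe set choice stayed those of all 6 arrays.

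The members, partner lists and tests were chosen with earlier results of these data known. All members were named, with up to 4 called genes of each partner list ranked by absolute change, or, in a list without calls, the 2 of lowest p, and the 3 genes nearest to STARD4; names outside this rule are marked as such in the text. The labels hold no hybridisation batch or scan date, so batch and treatment cannot be told apart.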

Additional observations from a re-analysis of the deposited data

How the results depend on the processing

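Under the threshold of the design text (1.5-fold or more, unadjusted p under 0.05) 1159 of the 11715 genes passed (461 higher and 698 lower) in place of 5748 (2545 and 3203), 3 members in place of 5 were lower, 1 in place of 2 was higher, and of the partners 6 were lower in place of 17 and 0 higher in place of 4. The difference is one of construction, since that threshold sets a minimum fold. Under the other 17 settings the count of members called lower was 4 to 6 and of those called higher 2, and of partners 12 to 18 and 3 to 5. The count over all genes was 6118 with the replicate number as a block. The sign turned in 2 genes that were not called, STARD3 over the mean of its probe sets (0.00) and CYP46A1 without PBS replicate 3 (-0.01, with up to 0.11 when other single arrays were left out), and the cause was not tested. The labels state no pairing of same-numbered samples of the groups. Their deviations from the group means correlated at 0.20, 0.18 and 0.08, against -0.19 to 0.02 for samples of unlike number. Each sample thus correlated best with its own number. The correlations were small, and with 3 samples in each group such a match can arise without pairing. They therefore cannot decide whether the samples were paired. Whether same-numbered samples share an origin was not tested. With the replicate number as a block, 5 members were called lower and 2 higher, as without it, and 18 and 4 partners. Signals near the Tag level limit NR1H3, ABCG1, ABCA1 and the dimmest probe sets of STARD4, NPC2 and SCARB1.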
